A study of Rattus norvegicus with 12 samples.

Results

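The receptors described here are those through which nerves and neighbouring cells act on the pancreatic islet: the adrenergic receptors Adra2a, Adra1b and Adrb1, the muscarinic receptors Chrm3 and Chrm4, and the somatostatin receptors Sstr1, Sstr2, Sstr3 and Sstr5. Members were taken by gene symbol from a table of 30309 transcripts under 25888 symbols, and each symbol was represented by its transcript with the highest mean count. Of the 9 symbols, 8 were found, with 9 transcripts, and all 8 passed the filter on low counts and were tested. Adra1b was not analysed here. Islets of Sprague Dawley rats were compared in 4 groups of 3 libraries: offspring with intrauterine growth restriction (IUGR) and control offspring, each at 2 and at 10 weeks of age. Growth was restricted by tying both uterine arteries of the dam on embryonic day 18. Control litters were reduced to 8 pups, and all dams and offspring ate standard chow. Whether control dams had sham surgery, the sex of the offspring and the number of animals behind each library were not given in the sources used here. P-values therefore measure only the spread between these libraries.

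Islet hormone secretion is tuned by autonomic nerves and by somatostatin from delta cells. Noradrenaline acting on the alpha2A adrenergic receptor, and somatostatin acting on its receptors, signal through Gi and Go proteins, which lower cyclic AMP, open GIRK potassium channels and restrain insulin release. Acetylcholine acting on the M3 muscarinic receptor signals through Gq and phospholipase C and raises insulin release, and the same receptor drives enzyme secretion from exocrine acinar cells.

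The libraries held 30.4 to 64.2 M counts each. The libraries differed in exocrine content: 30 acinar marker genes took 20.9 to 40.8% of counts in controls at 2 weeks, 4.25 to 9.09% in IUGR islets at 2 weeks, 13.6 to 46.1% in controls at 10 weeks and 0.607 to 2.26% in IUGR islets at 10 weeks. The insulin genes Ins1 and Ins2 together took 1.57 to 4.09%, 4.40 to 4.82%, 3.72 to 9.76% and 18.6 to 19.97% of counts in the same order of groups. None of the listed beta, alpha, delta or acinar marker genes was at 0 in every library. Levels below are CPM, counts per mega-count of library size after scaling by TMM factors. They are not corrected for transcript length, so they are compared between groups and not between genes.

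More of these receptors were called with age than with IUGR, as was so over all tested transcripts. Between 2 and 10 weeks, Adra2a rose 5.11-fold in control and 4.5-fold in IUGR islets, Sstr3 2.24-fold and 3.67-fold, and Sstr5 2.3-fold and 2.79-fold. In addition Chrm4 rose 1.97-fold in controls, while in IUGR islets Chrm3 rose 2.55-fold and Sstr1 fell 3.93-fold. In control islets 4 of 8 receptors rose and none fell (background: 17.2% of 20733 tested transcripts rose and 15.1% fell). In IUGR islets 4 of 8 rose and 1 fell (background: 27.3% rose and 29.2% fell). Taken in either direction, the 62.5% of receptors called there was near the share over all tested transcripts. The median log2 fold change over the 8 receptors was 0.61 with age in controls and 0.28 in IUGR islets, and 0.00 over all tested transcripts in each case. Counted by libraries that do not overlap, 4 receptors were higher at 10 weeks in controls (background: 20.6%), and 4 were higher and 3 lower in IUGR islets (background: 33.9% and 35.5%).

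IUGR was accompanied by fewer changes. At 10 weeks Sstr3 was 1.75-fold higher and Chrm4 2.45-fold lower in IUGR than in control islets, 2 of 8 receptors against a background of 27.9% of all tested transcripts. A call was an adjusted p under 0.05, taken over all tested transcripts with the quasi-likelihood test of edgeR. At 2 weeks none of the 8 reached it (background: 3.88%). There, 2 receptors, Adra2a and Chrm3, had an unadjusted p under 0.05, and DESeq2 called both. The median over the 8 receptors was 0.13 at 2 weeks and -0.55 at 10 weeks, beside 0.05 and -0.01 over all tested transcripts. Non-overlapping groups were found for 3 of 8 receptors at 2 weeks (background: 38.7%) and 3 of 8 at 10 weeks (background: 40.2%). The IUGR effect itself differed between ages for 1 of the 8, Chrm4 (background: 14.3%).

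**Figure D1:**
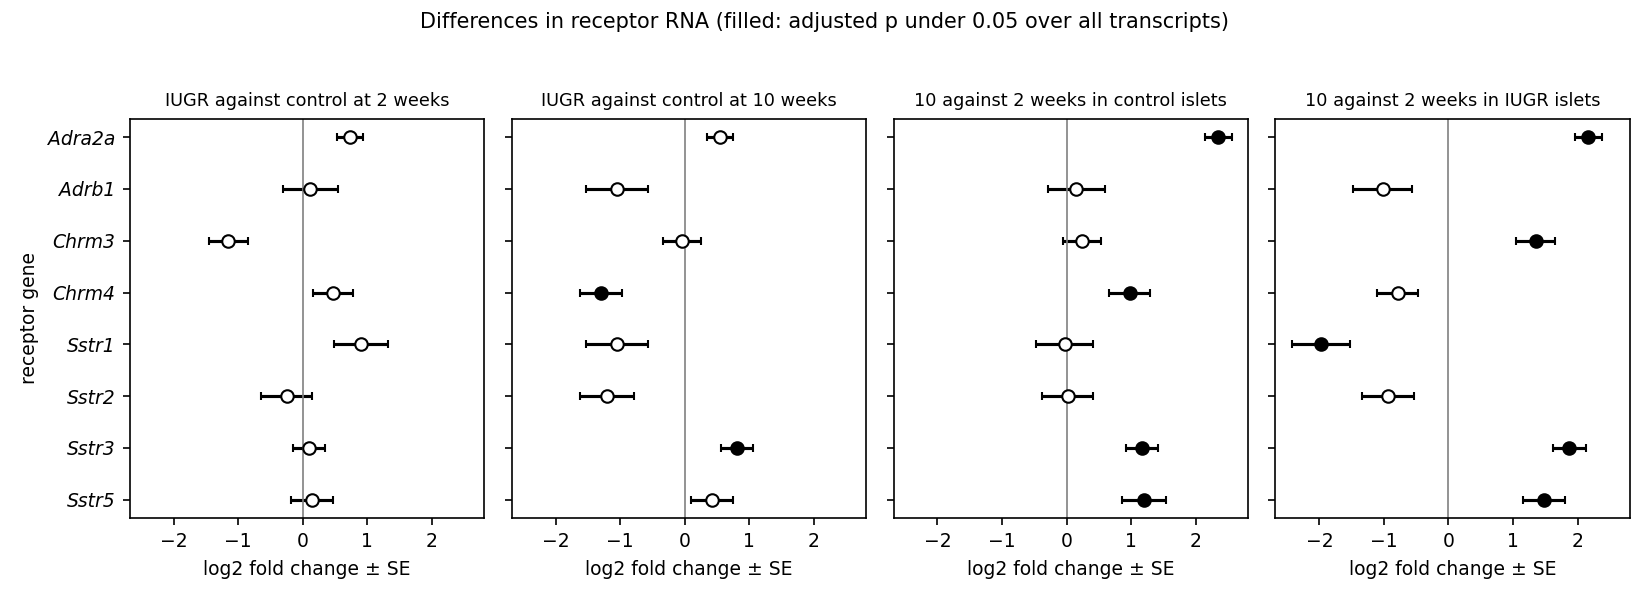
Log2 fold changes of the 8 receptors with their standard errors (horizontal axis) in 4 comparisons of 3 against 3 libraries. Filled points passed an adjusted p of 0.05 over all transcripts. Adra2a, Sstr3 and Sstr5 lie to the right in both comparisons of 10 with 2 weeks, and Sstr1 lies furthest left with age in IUGR islets, at -1.98.

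Adra2a encodes the alpha2A adrenergic receptor, the main receptor for noradrenaline on beta cells. Its level was 5.84, 7.96 and 9.36 CPM in the 3 controls at 2 weeks, and 13.3, 12.6 and 12.6 CPM in IUGR islets of that age. At 10 weeks it was 47.1, 38.0 and 33.6 CPM in controls and 59.1, 44.0 and 70.2 CPM in IUGR islets. Every 10-week library lay far above every 2-week library. At 2 weeks the IUGR libraries were all above the controls, whereas at 10 weeks the ranges overlapped. Between the ages Adra2a rose by 2.35 ± 0.21 (log2 ± SE) in controls (adjusted p = 8.6e-05) and by 2.17 ± 0.20 in IUGR islets (adjusted p = 1.2e-05). The difference between those changes was -0.18 ± 0.28 (adjusted p = 0.697), so a different rise in IUGR and control islets was not shown.

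IUGR against control gave Adra2a a log2 difference of 0.73 ± 0.20 at 2 weeks (adjusted p = 0.0604) and 0.55 ± 0.19 at 10 weeks (adjusted p = 0.0571), both short of the threshold. Without the third 2-week control the first value was 0.89 and passed (adjusted p = 0.0343). The second passed without the first 2-week control (0.55, adjusted p = 0.0341), without the first 10-week control (0.73, adjusted p = 0.0243) or without the second 10-week IUGR library (0.71, adjusted p = 0.0299). The share of acinar counts was higher in controls at both ages, without overlap. Adjusting for exocrine content therefore cannot tell it apart from IUGR, and adjusted differences are given as a description. The acinar covariate used here and below was the mean log2 CPM of the tested acinar marker transcripts. With it the Adra2a differences were 0.42 and -0.12.

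Beta cell marker genes rose over the same interval: 9 of 9 listed beta genes rose with age in both groups (background 17.2% in controls and 27.3% in IUGR islets). Their median log2 fold change was 1.88 in controls and 2.11 in IUGR islets. Of 6 alpha genes 5 fell in both groups (background 15.1% and 29.2%). In these bulk samples, more or fewer cells of a type and more or less RNA per cell cannot be told apart. When libraries were scaled to 12 endocrine transcription factor and transporter genes in place of TMM, Adra2a still rose by 1.98 in controls and by 1.68 in IUGR islets. That scaling lowered the median of all transcripts by 0.413 in controls and by 0.501 in IUGR islets. All backgrounds in this report are those under TMM, so counts under that scaling have no background of their own.

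The 250 bases upstream of the RefSeq start of Adra2a (GRCr8, chr1:263066530-263066779, plus strand) are shown because this gene had the largest age change of the receptors in both groups. Capitals mark a NeuroD1-type E-box (CAGNTG, both strands searched), CAGCTG, which begins 39 bases upstream.
Adra2a: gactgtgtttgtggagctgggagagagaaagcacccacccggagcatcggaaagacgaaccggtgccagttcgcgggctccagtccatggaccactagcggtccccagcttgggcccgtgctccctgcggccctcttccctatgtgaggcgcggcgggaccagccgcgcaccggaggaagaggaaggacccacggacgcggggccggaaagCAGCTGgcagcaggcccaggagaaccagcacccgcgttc
The E-box occurred in 43.3% of 33469 rat promoters of the same length, so its presence is a description only.

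Adrb1 encodes the beta1 adrenergic receptor, which couples to Gs and raises cyclic AMP. It was counted only 4 to 45 times per library, which limits precision. Its level was 0.601, 0.332 and 0.451 CPM in controls and 0.638, 0.310 and 0.534 CPM in IUGR islets at 2 weeks. The 10-week levels were 0.380, 0.682 and 0.438 CPM in controls and 0.362, 0.274 and 0.0988 CPM in IUGR islets. The 10-week IUGR libraries lay just below the controls of that age, and the other groups overlapped. The log2 difference at 10 weeks was -1.05 ± 0.48 (adjusted p = 0.12), and no comparison of Adrb1 passed.

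**Figure D2:**
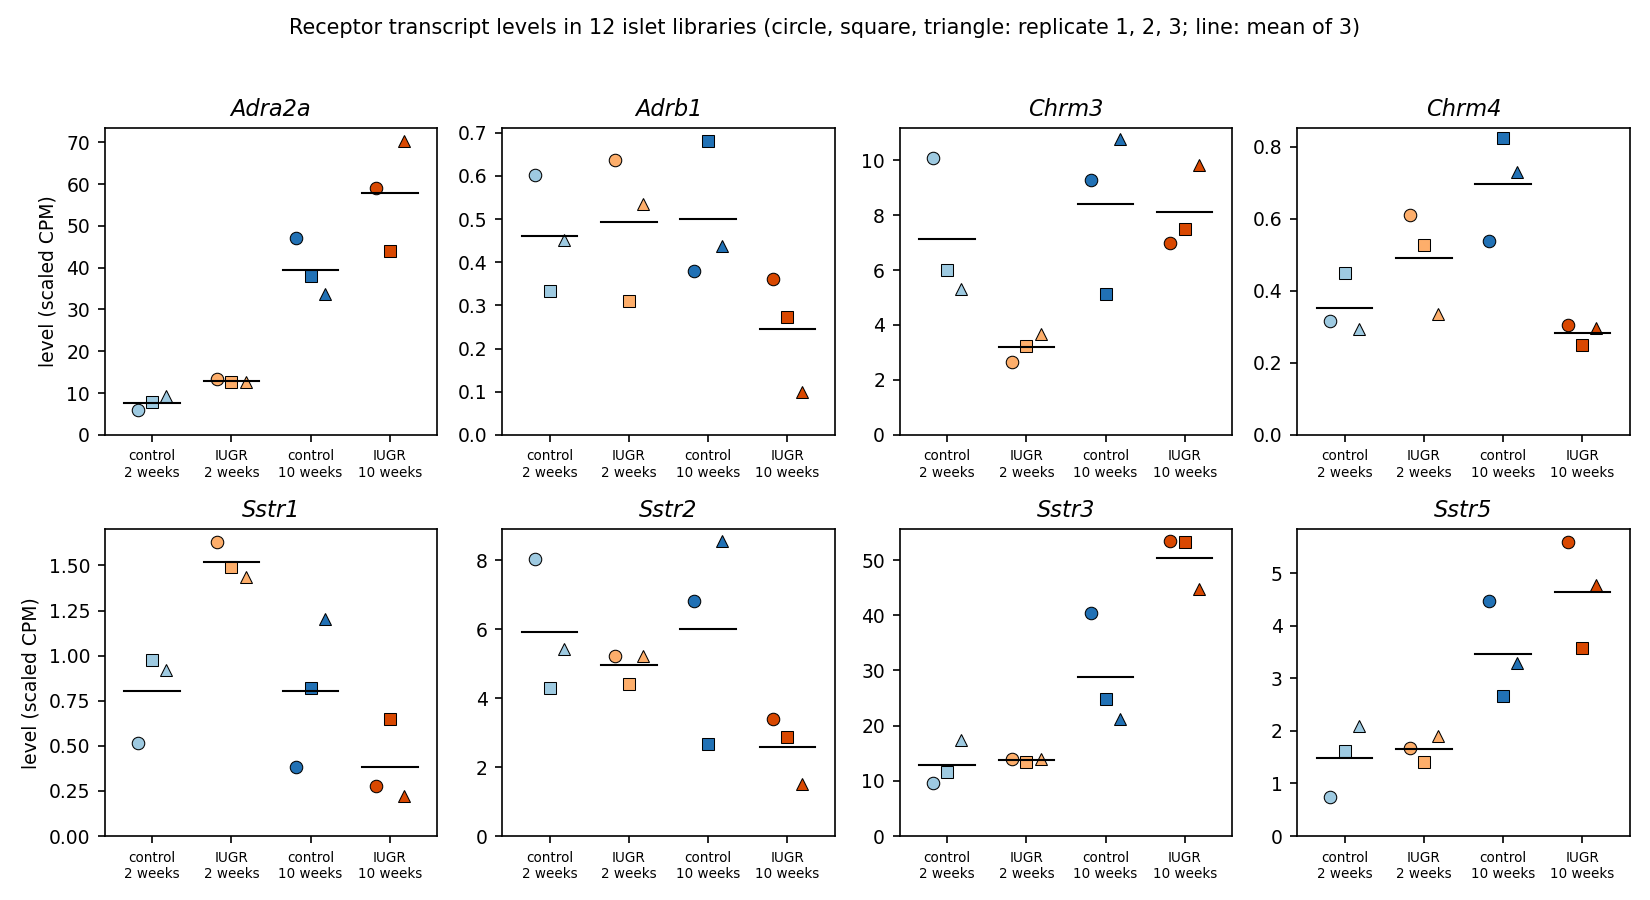
Level of each of the 8 receptors in scaled CPM (vertical axis, from 0) in the 12 libraries, by group; circles, squares and triangles are replicates 1, 2 and 3 and lines are means of 3. Adra2a was between 5.84 and 13.3 CPM in all 2-week libraries and between 33.6 and 70.2 CPM in all 10-week libraries.

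Chrm3 encodes the M3 receptor, which is present on both beta and acinar cells. Its level was 10.1, 6.0 and 5.30 CPM in controls and 2.67, 3.23 and 3.66 CPM in IUGR islets at 2 weeks. Levels at 10 weeks were 9.28, 5.13 and 10.8 CPM in controls and 6.99, 7.50 and 9.84 CPM in IUGR islets. The 3 IUGR libraries at 2 weeks were the lowest of all 12. The other 3 groups overlapped one another. With age Chrm3 rose in IUGR islets by 1.35 ± 0.30 (adjusted p = 0.00292), and the change in controls was 0.24 ± 0.30 (adjusted p = 0.562).

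The IUGR difference of Chrm3 at 2 weeks was -1.16 ± 0.30 (adjusted p = 0.0556) and at 10 weeks -0.04 ± 0.30 (adjusted p = 0.93). The difference between these effects, 1.11 ± 0.42, did not pass (adjusted p = 0.101). The value at 2 weeks passed without the third 2-week control (-1.33, adjusted p = 0.0331) or without the second 10-week control (-1.21, adjusted p = 0.0223), a library that enters only through the shared estimate of spread. Scaling to endocrine marker genes gave a rise of 0.87 with age in IUGR islets (adjusted p = 0.0889).

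Within each control group Chrm3 had the same order as the acinar share of the libraries. Among controls its 3 highest values, 10.1, 9.28 and 10.8 CPM, were in the 3 libraries with acinar shares of 40.8, 42.1 and 46.1%. The IUGR islets at 2 weeks, all low in Chrm3, had shares of 4.25 to 9.09%, and within them the library with the lowest share was not the lowest in Chrm3. The IUGR islets at 10 weeks had 6.99 to 9.84 CPM at acinar shares of 0.607 to 2.26%. With the acinar covariate the 2-week difference was -0.41 (adjusted p = 0.666) and the rise with age in IUGR islets was 1.95 (adjusted p = 0.000558). The difference between the IUGR effects became 1.88 (adjusted p = 0.0125). Without the 2 controls at 10 weeks that had over 40% acinar counts, that last difference was 1.81 (adjusted p = 0.0238).

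**Figure D3:**
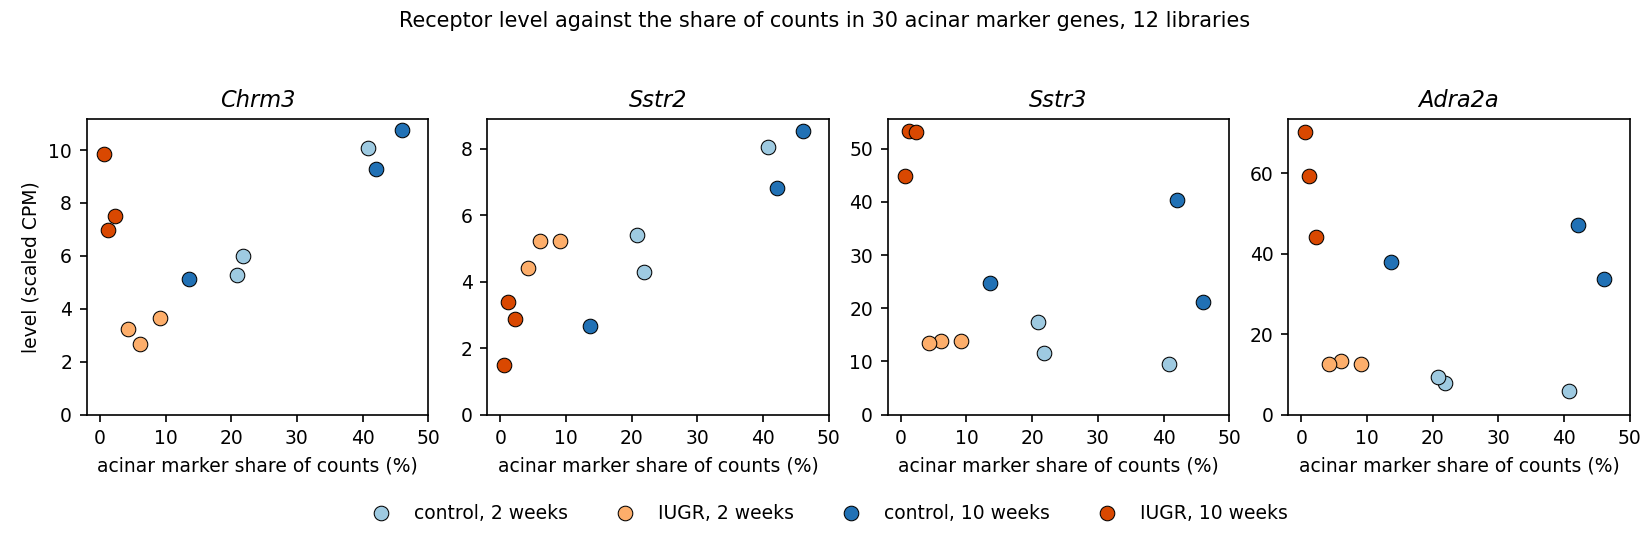
Level in scaled CPM (vertical axes, from 0) of Chrm3, Sstr2, Sstr3 and Adra2a against the percentage of counts in 30 acinar marker genes (horizontal axes) in the 12 libraries, coloured by group. Among controls Chrm3 and Sstr2 were highest at shares over 40%, and Chrm3 was 6.99 to 9.84 CPM in the 10-week IUGR libraries at the far left.

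Chrm4 encodes the M4 receptor, a Gi-coupled muscarinic receptor, and was counted 10 to 43 times per library. In controls its level was 0.315, 0.450 and 0.294 CPM at 2 weeks and 0.539, 0.823 and 0.730 CPM at 10 weeks. In IUGR islets it was 0.609, 0.528 and 0.334 CPM at 2 weeks and 0.306, 0.249 and 0.297 CPM at 10 weeks. Controls were higher at 10 than at 2 weeks and IUGR islets were lower, with no overlap in either case. At 10 weeks Chrm4 was lower in IUGR than in control islets by a log2 difference of -1.29 ± 0.32 (adjusted p = 0.0146).

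The IUGR difference of Chrm4 at 2 weeks was 0.47 ± 0.31 (adjusted p = 0.327). The IUGR effect at 10 weeks minus that at 2 weeks was -1.76 ± 0.44 (adjusted p = 0.0242). The rise in controls was 0.98 ± 0.31 (adjusted p = 0.0341), and the change in IUGR islets was -0.79 ± 0.32 (adjusted p = 0.0526). At these counts the calls were close to the threshold. The 10-week difference lost it without the second 10-week control (-1.13, adjusted p = 0.052) or the second 10-week IUGR library (-1.21, adjusted p = 0.0509), the rise in controls lost it in 5 of 12 runs that left out 1 library and the difference between ages in 7 of 12. Those values ranged from -1.41 to -1.13, from 0.83 to 1.19 and from -1.98 to -1.54.

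With the acinar covariate the 10-week Chrm4 difference was -2.11 (adjusted p = 0.0847). The rise in controls was called in 8 of 12 alternatives, not counting the runs without 1 library. Among others, its call was lost with no filter on low counts and in the fit of the 6 libraries compared. Scaling to endocrine marker genes ended the call on the rise in controls (0.58, adjusted p = 0.312) and that on the difference between ages (-1.87, adjusted p = 0.0752). The direction of each was kept.

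Sstr3 encodes a Gi-coupled somatostatin receptor that is carried on primary cilia. Its level was 9.56, 11.5 and 17.4 CPM in controls and 13.9, 13.4 and 13.9 CPM in IUGR islets at 2 weeks. The 10-week libraries had 40.4, 24.8 and 21.1 CPM in controls and 53.4, 53.2 and 44.8 CPM in IUGR islets. The order of groups at 10 weeks was without overlap, and at 2 weeks the IUGR values lay inside the control range. Sstr3 rose with age by 1.16 ± 0.25 in controls (adjusted p = 0.00543) and by 1.88 ± 0.25 in IUGR islets (adjusted p = 0.000104). Scaling to endocrine marker genes gave 0.79 and 1.37, both still called.

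At 10 weeks Sstr3 was higher in IUGR than in control islets by 0.81 ± 0.24 (adjusted p = 0.031), and at 2 weeks the difference was 0.10 ± 0.25 (adjusted p = 0.82). The difference between these effects was 0.71 ± 0.35 (adjusted p = 0.186). Without the first 10-week control, the highest of its group, it was 1.13 (adjusted p = 0.0169). The call at 10 weeks was lost without the second or the third control of that age (0.72 and 0.63, adjusted p = 0.0921 and 0.115) or without the first or second IUGR library (both 0.77, adjusted p = 0.0816 and 0.0802). It was also lost with the acinar covariate (0.85, adjusted p = 0.402) and under scaling to endocrine marker genes (0.41, adjusted p = 0.15). Under TMM 4 of 9 beta genes were higher in IUGR islets at that age and none lower (background 27.9% called in either direction).

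The upstream 250 bases of Sstr3 (GRCr8, chr7:111980251-111980500, minus strand) are shown for comparison with Adra2a, which also rose in both groups. Capitals mark E-boxes of the same type, read on the other strand, which begin 239 and 157 bases upstream.
Sstr3: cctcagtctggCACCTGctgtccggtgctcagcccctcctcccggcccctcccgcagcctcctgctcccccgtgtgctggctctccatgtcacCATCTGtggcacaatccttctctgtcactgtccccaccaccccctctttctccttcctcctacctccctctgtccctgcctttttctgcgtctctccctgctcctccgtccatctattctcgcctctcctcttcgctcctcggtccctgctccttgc
Neither window held a full cyclic AMP response element (TGACGTCA), its half-site (TGACG), a GC box (GGGCGG) or a TATA box (TATAAA, in 12.9% of promoters).

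Sstr5 encodes the receptor that with Sstr2 carries much of the somatostatin effect on islet hormone release. It was 0.744, 1.62 and 2.10 CPM in controls and 1.67, 1.41 and 1.90 CPM in IUGR islets at 2 weeks, and the groups overlapped. At 10 weeks it was 4.47, 2.66 and 3.29 CPM in controls and 5.59, 3.59 and 4.77 CPM in IUGR islets, again with overlap but with all values above those at 2 weeks. Sstr5 rose with age by 1.20 ± 0.33 in controls (adjusted p = 0.0194) and by 1.48 ± 0.33 in IUGR islets (adjusted p = 0.00272). The IUGR differences were 0.14 ± 0.33 at 2 weeks (adjusted p = 0.808) and 0.42 ± 0.32 at 10 weeks (adjusted p = 0.352).

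The rise of Sstr5 in controls lost its call without the second 2-week control (1.26, adjusted p = 0.0501) or the first 10-week control (0.95, adjusted p = 0.0755). Without both 10-week controls over 40% acinar counts it was 0.81 (adjusted p = 0.235).

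Sstr1 encodes another Gi-coupled receptor of the family and was counted 9 to 115 times per library. Its level was 0.515, 0.978 and 0.922 CPM in controls and 1.63, 1.49 and 1.44 CPM in IUGR islets at 2 weeks. At 10 weeks it was 0.380, 0.823 and 1.21 CPM in controls and 0.278, 0.648 and 0.222 CPM in IUGR islets. The IUGR islets thus had the highest values of the 4 groups at 2 weeks and the lowest mean at 10 weeks, where they overlapped with controls. Sstr1 fell with age in IUGR islets by 1.98 ± 0.46 on the log2 scale (adjusted p = 0.00346), and the change in controls was -0.03 ± 0.44 (adjusted p = 0.971).

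The IUGR difference of Sstr1 was 0.90 ± 0.42 at 2 weeks (adjusted p = 0.185) and -1.05 ± 0.47 at 10 weeks (adjusted p = 0.12). The difference between these effects was -1.95 ± 0.63 and did not pass (adjusted p = 0.0634). It passed without the first 10-week control (-2.19, adjusted p = 0.0195) or the second 10-week IUGR library (-2.56, adjusted p = 0.0297), and in DESeq2 (-1.97, adjusted p = 0.0204). The 10-week difference also passed without the first 10-week control (-1.34, adjusted p = 0.0366) or the second 10-week IUGR library (-1.66, adjusted p = 0.0424).

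Sstr2 encodes the Gi-coupled receptor that somatostatin uses on alpha cells to restrain glucagon release, and it is also expressed in exocrine pancreas. Its level was 8.04, 4.30 and 5.41 CPM in controls and 5.23, 4.41 and 5.23 CPM in IUGR islets at 2 weeks. Sstr2 at 10 weeks was 6.81, 2.66 and 8.54 CPM in controls and 3.40, 2.86 and 1.51 CPM in IUGR islets. The groups overlapped at both ages, while IUGR islets at 10 weeks were all below those at 2 weeks. The log2 difference at 10 weeks was -1.21 ± 0.41, at the edge of the threshold (adjusted p = 0.0502), and the change with age in IUGR islets was -0.94 ± 0.41 (adjusted p = 0.0694).

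The 3 highest Sstr2 values of all libraries, 8.04, 6.81 and 8.54 CPM, were in the 3 controls with acinar shares over 40%. The remaining 10-week control, at 13.6% acinar counts, had 2.66 CPM, within the range of IUGR islets. Without that library the 10-week difference was -1.55 (adjusted p = 0.00983), and without the other 2 controls of that age it was -0.02 (adjusted p = 0.979). It was -1.20 in DESeq2 and passed there (adjusted p = 0.0166). With the acinar covariate it was 1.64 (adjusted p = 0.0525), of the other sign. Acinar shares did not overlap between the groups, so exocrine content and IUGR could not be told apart here. The second Sstr2 transcript had 59.3 to 73.2% of the counts of the first, and its difference at 10 weeks was -1.22 ± 0.44 (adjusted p = 0.0592).

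The upstream windows of Sstr1 (GRCr8, chr6:81567233-81567482, plus strand) and Sstr2 (GRCr8, chr10:99163103-99163352, plus strand) are shown because these were the somatostatin receptors of the set without a rise in either group. Capitals mark a cyclic AMP response element half-site (TGACG, or CGTCA on the other strand) in Sstr1, and in Sstr2 the full palindromic element TGACGTCA, 73 bases upstream, which holds a half-site on each strand, and a GC box (GGGCGG, here CCGCCC) 26 bases upstream.
Sstr1: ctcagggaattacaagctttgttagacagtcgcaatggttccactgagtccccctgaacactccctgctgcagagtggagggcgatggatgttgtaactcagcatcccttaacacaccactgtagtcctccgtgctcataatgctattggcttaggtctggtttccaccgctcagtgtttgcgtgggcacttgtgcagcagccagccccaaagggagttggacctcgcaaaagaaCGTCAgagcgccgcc
Sstr2: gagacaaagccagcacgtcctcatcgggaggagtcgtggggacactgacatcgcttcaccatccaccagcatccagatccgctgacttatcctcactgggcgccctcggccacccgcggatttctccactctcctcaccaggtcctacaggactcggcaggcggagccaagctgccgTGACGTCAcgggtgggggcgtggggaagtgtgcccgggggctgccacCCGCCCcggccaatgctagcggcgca
Of the 33469 promoters, 1.59% held the full element, 18.2% a half-site and 30.5% a GC box. Of the 8 receptors, Sstr2 was the one with the full element, and these windows say nothing about which factors were bound.

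The somatostatin receptors were also compared by their share of the summed counts of Sstr1, Sstr2, Sstr3 and Sstr5, with 1 transcript for each. These sums were 659 to 2420 counts per library, and the shares do not depend on the scaling between libraries. The second Sstr2 transcript, with 59.3 to 73.2% of the counts of the first, was left out. Counting it in would raise the Sstr2 shares and lower the others. In IUGR islets the share of Sstr3 was 62.9 ± 1.61% (SD, n = 3) at 2 weeks and 86.9 ± 1.55% at 10 weeks. In controls it was 60.2 ± 8.56% and 73.2 ± 9.91%. The share of Sstr2 in IUGR islets was 22.6 ± 1.16% at 2 weeks and 4.37 ± 1.28% at 10 weeks, and in controls 29.0 ± 11.9% and 15.6 ± 8.48%. The counted mixture in IUGR islets thus moved from Sstr2 and Sstr1 towards Sstr3 with age, and in each case the 2 ages did not overlap.

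At 10 weeks the shares of Sstr3 and Sstr2 did not overlap between IUGR and control islets either. With 3 libraries against 3, the smallest p an exact two-sided permutation test allows is 0.1, which each of these comparisons reached (0.267 after Benjamini-Hochberg adjustment over 16 comparisons). The share of Sstr1 in IUGR islets was 6.95 ± 0.48% at 2 weeks and 0.651 ± 0.367% at 10 weeks, without overlap. The controls with the highest Sstr2 shares at each age, 42.6% and 25.0%, were those with acinar shares of 40.8% and 46.1%, and the part of exocrine content in these shares was not tested. The share of Sstr5 kept within 3.95 to 9.62% in all libraries. In single libraries the counting error was small beside the spread of controls: the Sstr2 share was 42.6% (95% Wilson interval 38.9 to 46.4%) in the first 2-week control and 21.0% (18.9 to 23.3%) in the third. Longer transcripts collect more reads, so the shares describe counts and not the order of receptor abundance.

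**Figure D4:**
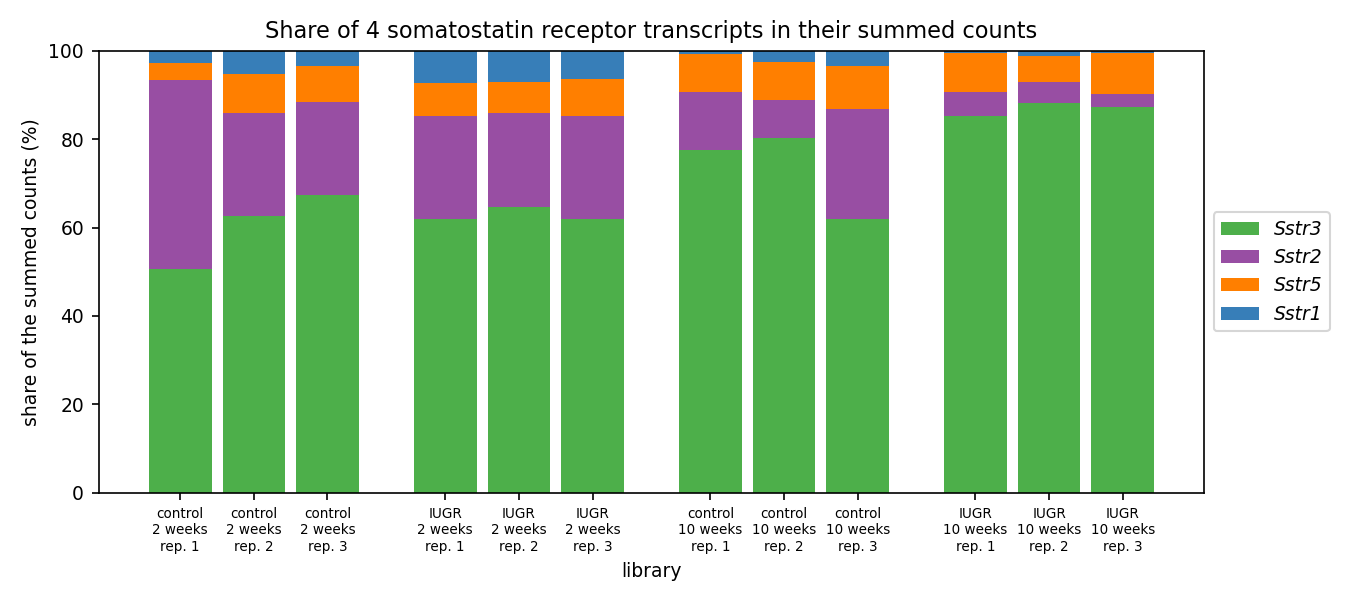
Share (vertical axis, percent) of Sstr3, Sstr2, Sstr5 and Sstr1 in their summed counts, as stacked bars for each of the 12 libraries. At 10 weeks Sstr3 makes up 85.2 to 88.2% in IUGR islets and 61.9 to 80.2% in controls.

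Of the adrenergic receptors outside the set, Adra1a, Adra1d, Adra2b, Adra2c and Adrb3 are described, and all 5 fell with age in IUGR islets, with a median log2 fold change of -2.81 (background 29.2%), while 3 of 5 fell in controls (median -1.15, background 15.1%). Adra1d, which couples to Gq, fell from 3.31 ± 0.689 to 0.466 ± 0.238 CPM (SD, n = 3) in IUGR islets, a log2 fold change of -2.81 ± 0.34 (adjusted p = 5.95e-05). Adra2c, another alpha2 receptor, fell by 3.22 ± 0.43 on the log2 scale there (adjusted p = 0.000107), from 115 counts over 3 libraries to 7. In controls the changes of Adra1d and Adra2c were -1.15 ± 0.33 (adjusted p = 0.0206) and -1.36 ± 0.45 (adjusted p = 0.0402). The Adra2c call there was lost without any 1 of the 6 control libraries or the second 2-week IUGR library (-1.45 to -1.21) and in DESeq2 (-1.38, adjusted p = 0.113). The Adra1d call in controls was lost without the third 2-week or the first 10-week control (-0.89 and -1.09). In IUGR islets all 5 remained called in every alternative that kept all libraries, and Adra2b (-1.14 ± 0.35, adjusted p = 0.016) lost its call without the first or the second 10-week IUGR library (-0.98 and -0.99).

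Adrb3 was nearly confined to the younger age. It had 46 counts over the 2-week controls and 0 over the 10-week controls, at least 3.6-fold lower against a floor of 3 counts per library. In IUGR islets it had 101 counts at 2 weeks and 1 at 10 weeks, a ratio of 60.4 (95% interval on the counts 10.6 to 2410). Of 6 fat cell markers, all 6 fell with age in IUGR islets (background 29.2%) and 3 of 6 in controls (background 15.1%). Among them Adipoq, the gene of the fat cell hormone adiponectin, changed by -6.75 ± 0.68 (adjusted p = 1.88e-05) and -3.64 ± 0.60 (adjusted p = 0.00144). The summed level of the 6 markers was 163 to 333 CPM in controls and 406 to 507 CPM in IUGR islets at 2 weeks, and 173 to 353 and 60.1 to 74.7 CPM at 10 weeks, with none at 0 in all libraries. In controls the summed levels at the 2 ages thus overlapped, while Adrb3 went from 46 counts to 0. The part of fat cells in the Adrb3 result was not tested.

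At 10 weeks 2 of the 5 were lower in IUGR islets (background 27.9% called in either direction), Adra1a (-1.41 ± 0.45, adjusted p = 0.0378) and Adra1d (-1.04 ± 0.36, adjusted p = 0.0493). None of the 5 was called at 2 weeks (background 3.88%). Without 1 library the count at 10 weeks ranged from 0 to 2, and of the 12 such runs Adra1a lost its call in 6 and Adra1d in 9. With the acinar covariate the count was 1. None of the 5 had an adjusted p under 0.05 at 2 weeks in DESeq2, which gave none for Adrb3. In IUGR islets genes of vessel wall and connective tissue cells moved with this family: 10 of 11 mesenchymal and 5 of 6 endothelial markers fell with age (background 29.2%). In controls 6 of the mesenchymal markers fell and 1 rose (background 15.1% and 17.2%), while no endothelial marker fell and 1, Plvap, rose (0.79 ± 0.22, adjusted p = 0.0211). Between groups, 7 of 11 and 5 of 6 were lower in IUGR than in control islets at 10 weeks (background 27.9% called in either direction). Their part in the receptor results was not tested.

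**Figure D5:**
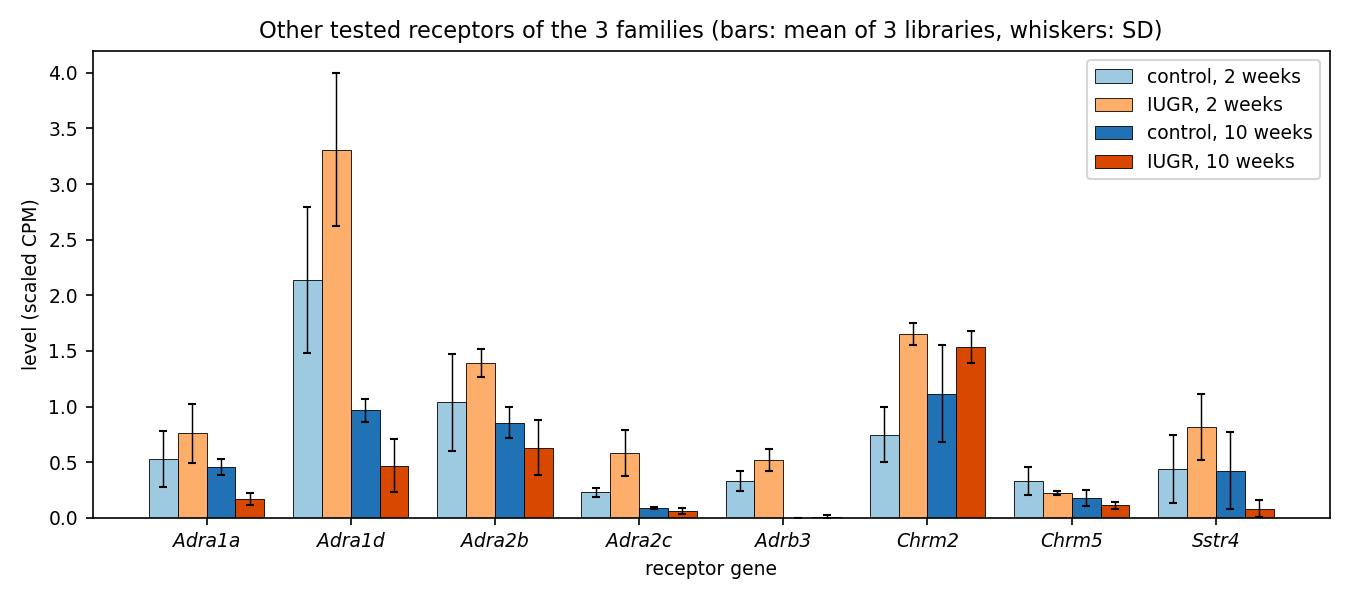
Mean level in scaled CPM (vertical axis, bars from 0) with SD whiskers of 8 further receptors of the 3 families in the 4 groups of 3 libraries; bars are not corrected for transcript length and are to be read within a gene. The 5 adrenergic receptors are lowest or near 0 in IUGR islets at 10 weeks, and Chrm2 is 1.65 and 1.53 CPM in IUGR islets at 2 and 10 weeks.

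Among 13 further cholinergic receptor genes, 9 were tested. With age in IUGR islets 1 rose and 4 fell (background 27.3% and 29.2%), and in controls 1 rose and 1 fell (background 17.2% and 15.1%). The nicotinic subunit gene Chrnb2 rose in both groups, by 1.41 ± 0.21 in IUGR islets (adjusted p = 0.000191) and by 1.30 ± 0.21 in controls (adjusted p = 0.00126). Chrna3 and Chrna5, subunits typical of autonomic ganglia, fell in IUGR islets, with log2 fold changes of -3.73 ± 0.61 (adjusted p = 0.000382) and -3.29 ± 0.67 (adjusted p = 0.00157). At 10 weeks 1 was higher and 4 were lower in IUGR than in control islets (background 27.9% called in either direction). Among the lower were Chrna3 (-3.17 ± 0.62, adjusted p = 0.00554) and Chrnb4, with 19 counts over the controls and 1 over the IUGR libraries (ratio 21.8, 95% interval on the counts 3.47 to 907). The 10-week call of Chrnb4 was lost without the second 10-week control or without the first or the third 10-week IUGR library. It was also lost with the acinar covariate.

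The muscarinic receptors Chrm2 and Chrm5 were not called in any comparison. Chrm2, Gi-coupled like Chrm4, had an IUGR difference of 1.16 ± 0.30 at 2 weeks (adjusted p = 0.0532), and Chrm5, coupled to Gq, had one of -0.56 ± 0.37 (adjusted p = 0.336). Of 8 neural and Schwann cell markers, 5 fell and 1 rose with age in IUGR islets (background 29.2% and 27.3%). In controls 3 of them rose with age and none fell (background 17.2% and 15.1%). At 2 weeks 2 were higher and none lower in IUGR than in control islets (background 3.88% called in either direction). At 10 weeks 3 were lower and 1 was higher in IUGR than in control islets (background 27.9% called in either direction).

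Sst, the gene of the hormone that acts on these receptors, passed in no comparison. Its level was 197 ± 60.2 CPM in controls and 283 ± 61.0 CPM in IUGR islets at 2 weeks, and 295 ± 44.0 and 280 ± 59.9 CPM at 10 weeks. Sstr4, the remaining receptor of the family, fell with age in IUGR islets (-3.34 ± 0.84, adjusted p = 0.00586), from 162 counts over 3 libraries to 9. Its IUGR difference at 10 weeks was -2.45 ± 0.89 (adjusted p = 0.0614).

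Genes for making and clearing the nerve transmitters went in both directions with age in IUGR islets, where 4 of 11 tested rose and 6 fell (background 27.3% and 29.2%). In controls 4 rose and none fell (background 17.2% and 15.1%, under TMM), and under scaling to endocrine marker genes none rose and 1 fell there. Ddc, the decarboxylase that completes dopamine synthesis, rose by 1.74 ± 0.18 (adjusted p = 2.01e-05) and Maoa, which breaks down monoamines, by 1.07 ± 0.11 (adjusted p = 2.31e-05), whereas Slc5a7, the choline transporter of cholinergic nerve endings, fell (-4.33 ± 0.49, adjusted p = 3.89e-05). Th, the rate-limiting enzyme of catecholamine synthesis, was higher in IUGR islets at 2 weeks (2.13 ± 0.49, adjusted p = 0.0468), and Dbh, which makes noradrenaline, was lower in them at 10 weeks (-3.11 ± 0.49, adjusted p = 0.00221). For both enzymes the IUGR effect differed between ages, by -4.01 ± 0.75 for Th (adjusted p = 0.00733) and -4.34 ± 0.63 for Dbh (adjusted p = 0.00317). The 2-week call of Th rested on 15 against 94 counts over 3 libraries and was lost in 9 of 12 runs without 1 library (1.81 to 2.73). Th was also called lower in IUGR islets at 10 weeks (adjusted p = 0.0311). That call was lost in 4 of 12 such runs (-2.41 to -1.59) and with the acinar covariate. The effects on Dbh at 10 weeks and between ages were called in all 12.

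Downstream of the Gi-coupled receptors, 5 of 11 Gi and Go subunit genes rose and 2 fell with age in IUGR islets (background 27.3% and 29.2%), and 2 rose and none fell in controls (background 17.2% and 15.1%). Gng2 rose by 2.21 ± 0.27 (adjusted p = 6.06e-05) and 2.02 ± 0.29 (adjusted p = 0.000694), and Gnao1, the Go alpha subunit, by 0.83 ± 0.18 (adjusted p = 0.00278) and 0.93 ± 0.19 (adjusted p = 0.00402) in IUGR and control islets. Gnai3 fell in IUGR islets (-0.49 ± 0.10, adjusted p = 0.00133). Scaling to endocrine marker genes left 1 of the 11 rising and 3 falling in IUGR islets, and ended the calls on Gnao1 in both groups. The backgrounds above do not apply to those counts.

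The GIRK channel genes Kcnj3 and Kcnj6 rose in both groups. Kcnj3 rose by 1.13 ± 0.25 in IUGR islets (adjusted p = 0.00247) and 1.59 ± 0.26 in controls (adjusted p = 0.00141), and Kcnj6 by 1.79 ± 0.36 (adjusted p = 0.00155) and 1.39 ± 0.45 (adjusted p = 0.036). Kcnj5 and Kcnj9 were not called. At 10 weeks Kcnj6 was also higher in IUGR than in control islets (1.44 ± 0.38, adjusted p = 0.0178), and of the Gi and Go genes Gng2 (1.03 ± 0.26, adjusted p = 0.0164) and Gnai1 (0.32 ± 0.10, adjusted p = 0.0387) were higher. Without 1 library the 10-week calls of Kcnj6, Gng2 and Gnai1 were lost in 2, 3 and 6 of 12 runs, and the rise of Kcnj6 in controls in 4 (1.20 to 1.59) and in DESeq2. With the acinar covariate, and under scaling to endocrine marker genes, none of the GIRK, Gi and Go genes was higher in IUGR islets at 10 weeks. That scaling also ended the call on the rise of Kcnj3 in IUGR islets (0.61, adjusted p = 0.0858) and on that of Kcnj6 in controls.

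In the Gq arm, which serves Chrm3, 1 of 13 tested genes rose and 6 fell with age in IUGR islets (background 27.3% and 29.2%), and 2 rose and 1 fell in controls (background 17.2% and 15.1%). Under scaling to endocrine marker genes none rose in either group, while 8 fell in IUGR islets and 3 in controls. That scaling lowered the median of all transcripts by 0.501 in IUGR islets and by 0.413 in controls. The backgrounds in this paragraph are those under TMM. With the acinar covariate 3 fell in IUGR islets. Itpr1 and Itpr2, calcium release channels of the endoplasmic reticulum, changed by -0.84 ± 0.12 (adjusted p = 0.000125) and -0.62 ± 0.14 (adjusted p = 0.00256), and Prkcd, a protein kinase C, by -1.25 ± 0.29 (adjusted p = 0.00378). In the Gs and cyclic AMP arm 7 of 18 rose and 7 fell in IUGR islets, and 5 rose and 2 fell in controls, against the same backgrounds. Under scaling to endocrine marker genes 2 rose and 7 fell in IUGR islets, and 1 rose and 3 fell in controls. Rapgef4, the cyclic AMP sensor Epac2 of beta cells, rose by 1.36 ± 0.14 (adjusted p = 2.29e-05), and the adenylyl cyclases Adcy2 and Adcy3 fell (-2.48 ± 0.25, adjusted p = 1.97e-05, and -1.78 ± 0.23, adjusted p = 9.74e-05).

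Of 12 tested genes that end receptor signals, 2 rose and 5 fell with age in IUGR islets (background 27.3% and 29.2%), and 3 rose and none fell in controls (background 17.2% and 15.1%). Under scaling to endocrine marker genes, to which these backgrounds do not apply, 1 rose and 1 fell in controls. Arrb1, the beta-arrestin that uncouples receptors from G proteins, fell by 1.81 ± 0.18 on the log2 scale (adjusted p = 1.86e-05), while Rgs9, which speeds the shut-off of Gi and Go, rose by 1.53 ± 0.17 (adjusted p = 3.25e-05). Arrb1 was 9.66 ± 1.69 CPM in controls and 3.90 ± 0.585 CPM in IUGR islets at 10 weeks, a difference of -1.31 ± 0.18 (adjusted p = 0.00155), and its IUGR effect differed between ages by -1.49 ± 0.25 (adjusted p = 0.00526). With the acinar covariate the 10-week call of Arrb1 was lost (-1.20, adjusted p = 0.094). Rgs4, a brake on Gi and Gq signals, was 74.9 ± 14.6 and 129 ± 8.49 CPM in control and IUGR islets at 2 weeks (0.78 ± 0.15, adjusted p = 0.0359) and 79.6 ± 8.00 and 107 ± 13.9 CPM at 10 weeks (0.43 ± 0.15, adjusted p = 0.0478), with the 10-week value at -0.013 under scaling to endocrine marker genes. Without 1 library the Rgs4 calls were lost in 7 of 12 runs at 2 weeks (0.66 to 0.94) and in 10 of 12 at 10 weeks (0.32 to 0.49).

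The genes whose profiles over the 12 libraries were most like each receptor were taken by the smallest root mean square difference of standardised log2 levels among 11439 genes. Nearest to Adra2a were Hcn4, a pacemaker channel (0.0898 SD units), Trpa1, a sensory cation channel (0.0996), and Brinp2 (0.103). Trpa1 was 0.387 ± 0.169 and 9.80 ± 2.62 CPM in controls at 2 and 10 weeks, and 0.956 ± 0.217 and 26.1 ± 6.54 CPM in IUGR islets. Sstr3 was nearest to Vps37a (0.121), Elavl4 (0.131) and Entpd3 (0.133), and Sstr5 to Stoml1 (0.207), Ogdhl (0.237) and Atp2a3 (0.25).

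Nearest to Chrm3 was Cckar (0.229), the receptor for cholecystokinin, at 79.7 ± 40.7 CPM in controls and 22.0 ± 4.37 CPM in IUGR islets at 2 weeks, and 104 ± 46.7 and 89.4 ± 12.3 CPM at 10 weeks. Pmpca (0.238) and Rbm47 (0.264) followed. Sstr1 was nearest to Leprot (0.24), and Sstr2 to Qsox1 (0.301). Chrm4 and Adrb1, the receptors with the fewest counts, had the least close neighbours, Cyp26b1 (0.358) and Lcn2 (0.442). These profiles share libraries and depth, and the likeness is a description.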

How the data were processed

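Per the labels' protocols, islet RNA with integrity numbers over 7 went into stranded libraries after removal of ribosomal RNA. The authors deposited 1 table of raw counts per transcript for the 12 libraries, whole numbers without normalization. TopHat2 2.0.9, bedtools, rn5 and mm9 are named in the submitters' processing notes with no role. How reads were counted, with which strand setting and on which annotation, was not given in the sources used here, so reads of overlapping or antisense genes cannot be told apart.

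Counts were analysed in R 4.3.3 with edgeR 4.0.16 (filterByExpr with a minimum count of 10, TMM factors, 1 fit of 4 groups, robust quasi-likelihood F test). Benjamini-Hochberg adjustment ran over 20733 transcripts, and an adjusted p under 0.05 was called. Standard errors were obtained by dividing the size of the log2 fold change by the root of its F statistic. The scripts were tested on simulated data. Totals of 30.4 to 64.2 M counts left the members at 4 to 2841 counts per library, and counting error is large for Adrb1 and Chrm4. Promoters and positions are from RefSeq (GRCr8), where 8 of 8 members matched.

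All members were named whatever their result. One gene of the wider receptor lists is not reported here. From each list of pathway genes the text names up to 3 with the smallest p in the comparison described, together with Sst, Th, Dbh, Rgs4 and the remaining family members, and of the 3 profiles most like each receptor a part. The members, lists and tests were chosen with earlier results of these data known. Tried in addition were no filter, RLE factors, DESeq2 1.42.0, a threshold of 0.1, the replicate number as a block and the acinar covariate (mean log2 CPM of acinar markers). Further alternatives were leaving out acinar genes and the 20 most abundant transcripts, scaling to endocrine marker genes, fits of 6 libraries, summed transcripts and 1 transcript per symbol. The last were leaving out 2 controls with over 40% acinar counts, and leaving out each library in turn.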

Additional observations from a re-analysis of the deposited data

Results flagged for a closer look

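Chrm4 had an IUGR effect that differed between the 2 ages. Its log2 difference between IUGR and control islets was 0.47 at 2 weeks and -1.29 at 10 weeks, and the second minus the first was -1.76 (adjusted p = 0.0242, edgeR's quasi-likelihood test). The test of that difference between ages passed the threshold, which is why it is listed. Chrm4 had 10 to 43 counts per library.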

How the results depend on the processing

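Of 952 values of the 8 receptors under the alternatives, 832 kept direction and side of the threshold, 42 stayed uncalled but changed sign, 46 passed it in addition, 32 no longer did and none that had been called changed sign. The age calls of Adra2a and Sstr3 in both groups, and those of Sstr1 and Sstr5 in IUGR islets, held in all 12 alternatives and all 12 runs without 1 library. The calls were 0 and 2 of 8 receptors for IUGR at 2 and at 10 weeks, 4 and 5 for age in controls and IUGR islets, and 1 for the difference between ages. They became 2, 4 and 2 (2 weeks, 10 weeks, difference) in DESeq2, and 2, 4 and 2 with 8 for age in IUGR islets at a threshold of 0.1. The share of all transcripts called under each alternative is not given here. A change in these counts is therefore not a result particular to the receptors. With the acinar covariate 0 were called at 10 weeks and 2 for the difference. Scaling to endocrine marker genes gave 4 at 10 weeks, all lower, and 0 for the difference, and shifted the median of all transcripts by -0.276 and -0.425 for IUGR at 2 and 10 weeks. Fits of the 6 libraries compared gave 1 at 10 weeks and 2 for age in controls. Without both 10-week controls over 40% acinar counts there were 2 at 2 weeks, 2 for age in controls and 2 for the difference. Leaving out 1 library gave 0 to 2, 1 to 4, 3 to 4, 5 to 6 and 0 to 3 calls in the same order. The cause of these changes was not tested, beyond the fewer samples in the smaller fits.

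Same-numbered replicates were not treated as paired in the main fit. Of 18 correlations of their deviations 8 were over 0.1 (range -0.137 to 0.478), which cannot decide whether they were paired, since exocrine content also differed between libraries. With the replicate number as a block the calls were 0, 2, 4 and 5, and 2 in place of 1 for the difference. Of other genes named, scaling to endocrine marker genes turned Gnai1 (-0.090) and Rgs4 (-0.013) at 10 weeks and Gnb5 with age in IUGR islets (-0.080), and the acinar covariate turned Chrna7 at 10 weeks (2.04 in place of a lower level). Depth limits Adrb1, Chrm4 and Sstr1.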
